A study of Mus musculus with 15 samples.

Results

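The M and A clones are clonal populations of 4T1 cells, a transplantable mouse mammary carcinoma line, and their transcriptomes were compared gene by gene. All 6 libraries labelled with these 2 populations were used, 3 of M and 3 of A, out of 15 libraries and 5 populations in all. Both clones go back to the parental 4T1 population after it was transfected with pNLS-iRFP670, a plasmid for a near-infrared fluorescent protein sent to the nucleus, and each was grown up from 1 isolated cell. Their genotype label is iRFP670 expressing, as for the clones E1 and E2, whereas the parental population is labelled WT. M and A were kept in RPMI-1640 medium with fetal bovine serum and with G418, the antibiotic that selects for the plasmid, and G418 was left out of the culture from which RNA was taken. RNA was collected after 72 hours at about 80% confluency, without any treatment that differed between the clones. M and A are thus 1 clone each, and their 3 libraries, labelled as biological replicates, measure the spread within a clone and not the spread among clones. In these data, differences between the plasmid's insertion in M and in A and differences between the founder cells cannot be told apart.

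Clones from 1 tumour line can differ in their chromosomes, in their lineage state and in how they respond to their medium. The integrated stress response slows general translation when eIF2-alpha is phosphorylated and raises the transcription factor ATF4, which turns on genes of amino acid synthesis, amino acid import and tRNA charging. Carcinoma cells also lie along a range between epithelial cells, held together by junctions and keratins, and mesenchymal cells, which secrete and cut extracellular matrix. MHC class I molecules, with the transporters and proteasome subunits that load them, display peptides of the cell's own proteins to cytotoxic T cells.

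The M libraries held 23397818, 36831801 and 33575482 counts and the A libraries 28689958, 30775278 and 32712813. The 6 genes with the most counts, among them identifiers without a symbol and the mitochondrial ribosomal RNAs, took 61.4% to 68.3% of the counts in M and 64.4% to 65.8% in A. The highest, an identifier without a symbol, alone took 37.8% to 44.7% in M and 36.8% to 39.3% in A. Outside the 6 genes the depth was 7657054 to 14206491 counts in M and 10218498 to 11454056 in A. Levels are given as CPM, counts per 1000000 counts of the library after scaling by the TMM method, which serve to compare 1 gene between libraries and not genes with each other. Correlations of log2 CPM, across genes, were 0.953 to 0.959 within M, 0.959 to 0.963 within A and 0.922 to 0.94 between the clones. M replicate 2 stood apart from the other M libraries in proliferation genes. Its replication-dependent histone genes summed to 355 CPM, against 98.0 and 106 CPM in M replicates 1 and 3 and 151 to 181 CPM in A. Its cell cycle and mitosis genes summed to 4510 CPM, against 2960 and 2920 CPM in M and 3470 to 3570 CPM in A. The 9 other libraries ranged from 176 to 407 CPM for the histone genes and from 2590 to 4210 CPM for the cell cycle genes. For the histone genes M replicate 2 was thus within their range, and replicates 1 and 3 of both M and A were below it. For the cell cycle genes M replicate 2 was above their range. Of 24 leukocyte markers 18 had no count in any of the 6 libraries, Ptprc and Itgam among them, and the list summed to 0.417 to 1.25 CPM in M and 0.673 to 1.29 CPM in A. Of 14 fibroblast markers 7 were at 0 (Col3a1, Dcn and Lum among them), with sums of 53.1 to 130.0 CPM in M and 65.7 to 79.1 CPM in A. Of 14 endothelial markers 5 were at 0, Cdh5 and Vwf among them, and the rest summed to 13 to 18.2 CPM in M and 33.5 to 36.5 CPM in A. Of 10 adipocyte markers 5 were at 0, including Adipoq. The defining epithelial marker Epcam stood at 40.5, 57.6 and 41.8 CPM in M and at 47.3, 45.2 and 47.8 CPM in A, and Krt18 at 104, 211 and 141 CPM in M and at 223, 257 and 255 CPM in A, so that epithelial genes were expressed in every library of the 2 clones.

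Of 27179 identifiers counted 12712 had enough reads to be tested, and of these 2256 were called different between M and A, which is 17.7%. A call is a Benjamini-Hochberg adjusted p under 0.05 over all genes tested. The test was edgeR's quasi-likelihood test of M minus A within a fit of all 15 libraries. The other populations thus add to the estimate of the spread, to the scaling and to the choice of genes tested. With the M and A libraries only, 11976 genes were tested. Of the calls, 1169 genes (9.2% of those tested) were higher in M and 1087 (8.55%) were lower in M. The median absolute log2 fold change of the called genes was 0.86, that is, most differences were under 2-fold. A call with at least a 2-fold difference was made for 853 genes (6.71%), 322 higher in M (2.53%) and 531 lower in M (4.18%), and past 4-fold there were 58 higher and 185 lower. The 3 libraries of one clone all lay above the 3 of the other for 4459 genes (35.1%), among them 2187 of the called genes (96.9%). Most genes named below were picked with no overlap as a condition, so that its mention there is not separate evidence. The median log2 fold change of all tested genes was -0.02, against which the gene groups below are read. In such bulk RNA, fewer cells that express a gene and less of its RNA in each cell cannot be told apart. Without M replicate 2 the calls numbered 2003, and without A replicate 3 they numbered 1479.

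The called genes were placed against the 9 libraries of the parental, E1 and E2 populations as a description. Among the 1169 genes higher in M, the 3 A libraries lay below all 9 other libraries for 670, and the 3 M libraries lay above all 9 for 55. For the 1087 genes lower in M, the A libraries were above all 9 for 703, and the M libraries were below all 9 for 35. In percent, A stood outside the range of the other populations for 57.3% and 64.8% of the calls in either direction, and M for 7.01% and 6.26%. Most genes that separate the clones were thus outside the range of the other populations in A and within or overlapping it in M.

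The calls were spread unevenly over the chromosomes. On chromosome 6, 181 of 589 tested genes were called higher in M and 19 lower, 34.0% in all against 17.7% of all genes, and the median log2 fold change was 0.45. Chromosome 6 held 4.63% of the tested genes and 15.5% of those called higher. On chromosome 9 the direction was the opposite, with 15 genes higher and 148 lower in M of 718 tested (22.7%) and a median of -0.33. Chromosome 3 had 23 higher and 110 lower of 604 (22%) and a median of -0.24. Outside these 3 chromosomes, 950 genes were called higher and 810 lower in M.

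Each of the 3 shifts ran along the chromosome. When it was divided into windows of 10 Mb with at least 15 tested genes, all 13 windows of chromosome 6 had a positive median, from 0.355 to 0.704, and 78.1% of its tested genes had a log2 fold change above 0. All 13 windows of chromosome 9 had a negative median, from -0.504 to -0.246, and 24.7% of its genes lay above 0. On chromosome 3, 11 of 12 windows had a negative median and 30.0% of the genes lay above 0. Windows were largely of 1 sign on other chromosomes too, with chromosome medians nearer 0. Negative were 11 of 12 windows on chromosome 13 (chromosome median -0.09) and 7 of 8 on chromosome 16 (-0.08). Positive were 12 of 14 on chromosome 7 (0.10).

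The library values show which clone stood apart. For chromosome 6, the median log2 level of its genes relative to their mean over all 15 libraries was 0.172, 0.246 and 0.214 in the M libraries and -0.217, -0.228 and -0.257 in the A libraries. The 9 other libraries lay between -0.0813 and 0.0569, so that M was above and A was below all of them. For chromosome 9 the A libraries were at 0.354, 0.304 and 0.289, above the other 9 (-0.262 to 0.113), and the M libraries at -0.00847, -0.0423 and -0.0107 lay among these. For chromosome 3 the M libraries were at -0.166, -0.126 and -0.121, below the other 9 (-0.0334 to 0.103), and the A libraries at 0.0652, 0.0897 and 0.0994 were within their range. With 3 libraries against 3, an exact two-sided permutation test of these medians cannot go below p = 0.1, which all 3 chromosomes reached, with an adjusted p = 0.2 over 20 chromosomes. The 3 M and 3 A libraries did not overlap for 10 of the 20 chromosomes, in 5 with M above and in 5 with A above. Each of these 10 reached the same p, also chromosome 4 with a difference of -0.0271 and chromosome 5 with 0.0449. The test thus does not set apart chromosomes 3, 6 and 9, which were picked from these same data.

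**Figure D1:**
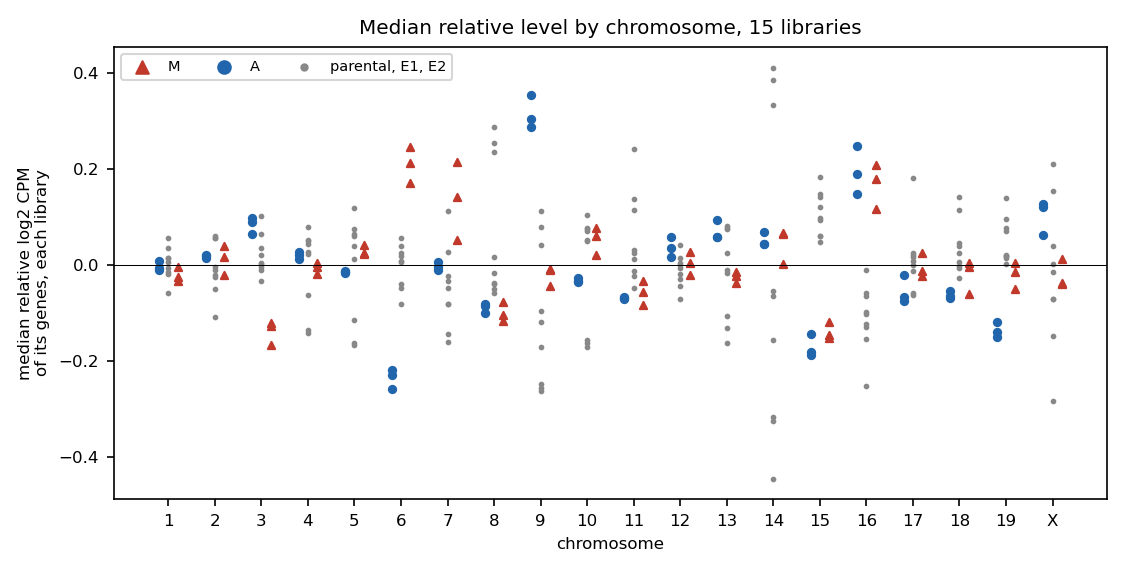
Median log2 CPM of each chromosome's genes relative to the mean over all 15 libraries (vertical axis), by chromosome (horizontal axis), with 1 point a library. M (red triangles) lies highest on chromosome 6, where A (blue circles) lies lowest at -0.217 to -0.257, and A lies highest on chromosome 9 at 0.289 to 0.354; grey dots are the parental, E1 and E2 libraries.

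Chromosome 6 also held 5 of the 8 genes with the largest rise in CPM among those at least 2-fold higher in M. Cald1, which encodes the actin-binding protein caldesmon (identifier 109624, chromosome 6, 34598495 to 34775469), stood at 501, 483 and 532 CPM in M and at 243, 247 and 259 CPM in A. The clones did not overlap, and the log2 fold change was 1.02 ± 0.05 (SE) with adjusted p = 1.18e-05. Met, the receptor of hepatocyte growth factor, was at 240.1, 355 and 311 CPM in M and at 126, 148 and 146 CPM in A (log2 fold change 1.11 ± 0.18, adjusted p = 2.84e-05). All 3 M values were above all 3 A values, although M replicate 1 was the lowest of M. Gars, the glycyl-tRNA synthetase, Cnbp, a nucleic acid binding protein, and Strap, a WD-repeat protein that binds kinases, were the other 3, with log2 fold changes of 1.25, 1.01 and 1.15. Wnt7a, a secreted Wnt ligand (identifier 22421, chromosome 6, 91363981 to 91411353), was at 67.8, 55.9 and 66 CPM in M and at 15.8, 16.3 and 13.3 CPM in A (log2 fold change 2.06 ± 0.12, adjusted p = 2.44e-09). M lay above all 9 libraries of the other populations for this gene.

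Of the 13 windows on chromosome 6, 12 had a median at least 0.4 away from that of all genes, and genes of quite different roles shared the direction in them. Hk2, the hexokinase that starts glycolysis, was at 70.2, 69.8 and 70.9 CPM in M and at 34.8, 33.6 and 38.3 CPM in A, a log2 fold change of 0.98 ± 0.06 with adjusted p = 1.18e-05. Rbsn, an endosomal Rab effector, had a log2 fold change of 1.35 ± 0.12 (adjusted p = 2.34e-06), Nup210 of the nuclear pore 1.45 ± 0.17 (adjusted p = 7.06e-05), and Ybx3, a cold shock domain protein, 1.08 ± 0.11 (adjusted p = 6.7e-06). Emp1, an epithelial membrane protein, rose from 209 CPM ± 15.8 (SD, n = 3) in A to 415 CPM ± 81.3 in M (adjusted p = 0.000131). A few genes of the chromosome went the other way. The water channel gene Aqp1 was at 1.15, 1.79 and 1.1 CPM in M and at 7.11, 10.5 and 10.2 CPM in A, all A values above all M values (log2 fold change -2.71 ± 0.28, adjusted p = 0.000342), and the protease gene Adamts9, described below, was nearly silent in M.

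On chromosomes 9 and 3 most called genes were higher in A. On chromosome 9, Plscr4, a phospholipid scramblase, was at 2.2, 2.79 and 2.65 CPM in M and at 12.8, 17.7 and 15 CPM in A (log2 fold change -2.54 ± 0.17, adjusted p = 4.97e-05). Oaf was at 10.4, 15.2 and 9.62 CPM in M and at 35.3, 44.7 and 33.1 CPM in A (-1.67 ± 0.24, adjusted p = 1.75e-05). Neither gene's libraries overlapped between the clones, which was a condition for naming them. Hspa8, the constitutive HSP70 chaperone, was at 144, 194 and 196 CPM in M and at 306, 402 and 466 CPM in A, with a log2 fold change of -1.14 ± 0.23 and adjusted p = 9.06e-05. Tfdp2, a partner of E2F factors, fell from 50.5 CPM ± 1.94 in A to 24.4 CPM ± 3.92 in M (adjusted p = 0.000134). On chromosome 3 the window from 150 to 160 Mb had the lowest median, -0.45, and in it Dnajb4, an HSP40 co-chaperone, was at 18.6, 15 and 22.1 CPM in M and at 35.1, 44.9 and 46.5 CPM in A (log2 fold change -1.18 ± 0.21, adjusted p = 0.000706). Acadm, the medium-chain acyl-CoA dehydrogenase of fatty acid oxidation, was lower in M by the same test (log2 fold change -0.98 ± 0.18, adjusted p = 0.000443).

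Fold changes were ranked among called genes that had a symbol, at least 5 CPM in the higher clone and no overlap of libraries. The largest of these were on the A side, and several concerned secreted proteins. Cp, which encodes the copper-carrying ferroxidase ceruloplasmin (identifier 12870, chromosome 3, 19956933 to 20009750), stood at 3.39, 5.02 and 5.8 CPM in M and at 108, 103 and 112 CPM in A. All A libraries were above all M libraries, the log2 fold change was -4.48 ± 0.23 and the adjusted p = 1.5e-13, the smallest of all genes tested. The parental, E1 and E2 means were 17.4, 8.02 and 8.32 CPM, so that A was above and M below the other populations. Spp1, which encodes the secreted phosphoprotein osteopontin (identifier 20750, chromosome 5, 104435111 to 104441053), was at 92.6, 105 and 126 CPM in M and at 1240.0, 1489 and 1390.3 CPM in A (log2 fold change -3.67 ± 0.15, adjusted p = 2.44e-09). M was within the range of the other populations, whose means were 116, 36.6 and 42.2 CPM, and A was above all of their libraries. Dmp1, another phosphoprotein of mineralized matrix, also on chromosome 5, was at 0.0881, 0.147 and 0.583 CPM in M and at 10.4, 13.1 and 19 CPM in A (-5.37 ± 0.67, adjusted p = 4.68e-08). Clu, the extracellular chaperone clusterin, was at 3.48, 7.5 and 4.5 CPM in M and at 57.8, 41.7 and 47.5 CPM in A (-3.22 ± 0.35, adjusted p = 2.44e-09). In each of these 4 genes the 2 clones were far apart beyond the spread of their libraries.

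Other genes with a large excess in A act in growth control and survival. Pdgfc, a platelet-derived growth factor, was at 1.1, 1.74 and 1.49 CPM in M and at 17.2, 16.9 and 26.6 CPM in A (log2 fold change -3.73 ± 0.28, adjusted p = 2.44e-09). Arrdc3, an alpha-arrestin that brings receptors to degradation, was at 2.6, 2.25 and 4.44 CPM in M and at 44.3, 37.4 and 40.9 CPM in A (-3.69 ± 0.30, adjusted p = 6.48e-07). Bmf, a BH3-only protein that promotes apoptosis, was at 0.573, 0.539 and 0.0648 CPM in M and at 6.11, 6.0 and 9.19 CPM in A (-3.96 ± 0.77, adjusted p = 7.64e-06). For all 3 the A libraries were above all other libraries of the series, and M was among the other populations. Dio2, which activates thyroid hormone, Tnfrsf19, a TNF receptor family member, and Galnt15, a glycosyltransferase, had log2 fold changes of -3.27, -3.35 and -5.18 with adjusted p from 3.48e-06 to 0.00547. S100a16, a calcium-binding protein on chromosome 3, was at 0.353, 0.196 and 1.42 CPM in M and at 4.48, 6.59 and 11 CPM in A (adjusted p = 0.0196), and its call was lost in 4 of 13 alternative analyses, at adjusted p up to 0.0727. Over the 15 largest fold changes of the A side among the genes with at least 5 CPM, A was above the 9 other libraries in all 15 and M was within their range in 14, the exception being Cp. Of all 1087 genes called lower in M, A was above for 703 and M within the range for 1019.

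On the M side the largest fold among the genes with at least 5 CPM belonged to Serpinb2, the plasminogen activator inhibitor PAI-2 (identifier 18788, chromosome 1, 107500892 to 107525600). It was at 8.06, 18.7 and 6.93 CPM in M and at 0.199, 0.294 and 1.48 CPM in A, with M replicate 2 the highest, and all M values were above all A values (log2 fold change 3.96 ± 0.90, adjusted p = 0.00119). M was above the other populations too, whose means were 0, 2.75 and 2.1 CPM. Klk10, a kallikrein-related peptidase, was at 6.92, 14.8 and 10.5 CPM in M and at 1.96, 2.15 and 1.38 CPM in A (2.51 ± 0.37, adjusted p = 1.95e-05). Igsf11, an immunoglobulin-type adhesion protein, was at 6.39, 15.8 and 12.9 CPM in M and at 1.23, 1.21 and 2.64 CPM in A (2.74 ± 0.53, adjusted p = 9.03e-06). Il24, a cytokine of the IL-10 family, was at 2.69, 8.77 and 4.05 CPM in M and at 0.963, 0.881 and 0.799 CPM in A (2.48 ± 0.50, adjusted p = 2.73e-05). These 4 genes did not overlap between the clones, but their M values spread more than 2-fold. Plk2, a polo-like kinase, was more even at 73.8, 91 and 72.6 CPM in M and at 14.1, 21.1 and 17.8 CPM in A (2.16 ± 0.20, adjusted p = 3.41e-07), as was Pfkfb3, which makes the activator of phosphofructokinase, at 7.98, 8.68 and 8.29 CPM in M and at 1.99, 1.7 and 1.72 CPM in A (2.16 ± 0.08, adjusted p = 1.37e-06). Of the 15 largest fold changes of the M side among these genes, A was below the 9 other libraries in 10 and M was above them in 3, namely Serpinb2, Klk10 and Wnt7a. Of all 1169 genes called higher in M, A was below for 670 and M above for 55.

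**Figure D2:**
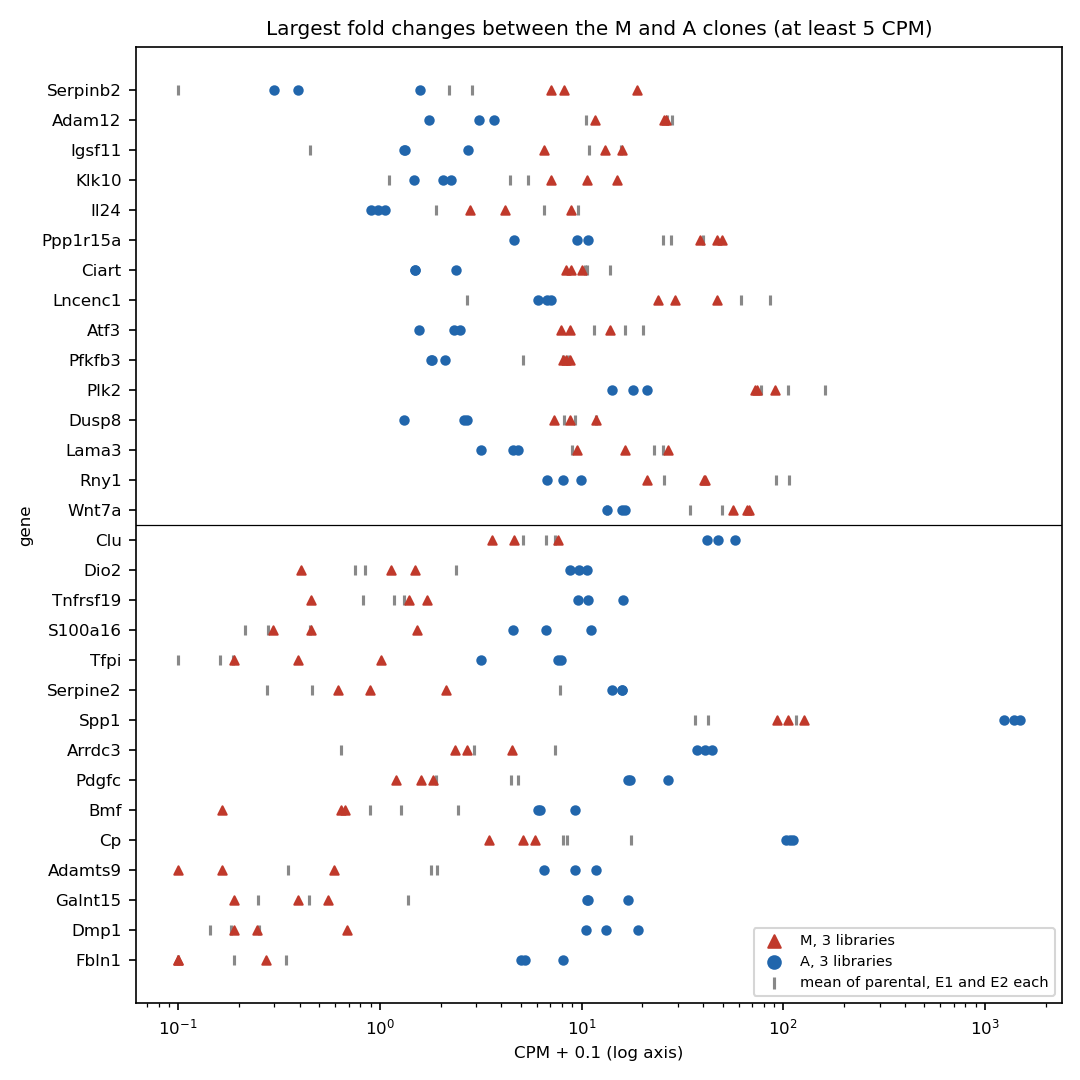
CPM + 0.1 on a log axis for the 15 genes with the largest log2 fold change in each direction, among called genes with at least 5 CPM in the higher clone and no overlap of libraries, 1 point a library for M (red triangles) and A (blue circles), with grey ticks for the means of the parental, E1 and E2 populations. In the lower panel the A points lie to the right of every other mark, as for Spp1 at 1240.0, 1489 and 1390.3 CPM in A, and in the upper panel the M points lie mostly among the ticks.

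Genes of the ATF4 arm of the integrated stress response were higher in M as a group. Of 45 listed genes 44 were tested, and 31 were called higher and 2 lower in M. That is 75% called against 17.7% of all genes, with a median log2 fold change of 0.79 against -0.02. With each library left out in turn, 27 to 32 members were called. For 28 of the 31 the A libraries lay below all 9 libraries of the other populations, and the M libraries lay within the range of those 9 for 30 and below it for 1. Of all 1169 genes called higher in M, A lay below for 670 and M within the range for 1087. The list was taken up with results of these libraries known. With the members on chromosomes 3, 6 and 9 set aside, 26 of 37 were called higher and 2 lower.

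A RefSeq table of promoters (assembly GRCm38.p6) held 26 of the 31 members called higher, and 10 of these 26 had TGATGNAA, the core of the element that ATF4 binds with C/EBP partners, on either strand within 250 bases before and 50 bases after the gene's start. This is 38.5%, and over all tested members of the list it was 14 of 35 (40.0%). It was found in 268 of the 9704 tested genes with a promoter there (2.76%) and in 1219 of all 27025 genes listed (4.51%). A match is a description of the letters and not a measured site. The members were listed as genes of the ATF4 response, so their excess over all tested genes is no separate evidence on M against A. The members called higher had no larger share than the tested list as a whole. Promoters of 4 members that span the roles of the group are shown because these genes moved together, with the motif in capitals and written 5′ to 3′ along the gene's own strand. They are Atf3 (minus strand, chr1:191183284-191183583), Chac1 (plus strand, chr2:119350992-119351291), Asns (minus strand, chr6:7693160-7693459) and Trib3 (minus strand, chr2:152344011-152344310).
Atf3: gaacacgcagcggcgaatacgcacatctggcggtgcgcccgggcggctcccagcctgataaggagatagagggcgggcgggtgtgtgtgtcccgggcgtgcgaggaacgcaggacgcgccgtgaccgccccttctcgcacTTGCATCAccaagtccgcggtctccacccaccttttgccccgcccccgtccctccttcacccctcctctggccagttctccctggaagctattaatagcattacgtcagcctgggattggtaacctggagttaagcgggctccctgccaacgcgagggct
Chac1: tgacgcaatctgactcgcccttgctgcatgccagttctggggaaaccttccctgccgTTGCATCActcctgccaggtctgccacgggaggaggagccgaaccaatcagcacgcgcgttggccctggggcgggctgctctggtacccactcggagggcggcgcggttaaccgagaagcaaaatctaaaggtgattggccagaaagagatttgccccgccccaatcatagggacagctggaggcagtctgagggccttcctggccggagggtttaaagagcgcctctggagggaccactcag
Asns: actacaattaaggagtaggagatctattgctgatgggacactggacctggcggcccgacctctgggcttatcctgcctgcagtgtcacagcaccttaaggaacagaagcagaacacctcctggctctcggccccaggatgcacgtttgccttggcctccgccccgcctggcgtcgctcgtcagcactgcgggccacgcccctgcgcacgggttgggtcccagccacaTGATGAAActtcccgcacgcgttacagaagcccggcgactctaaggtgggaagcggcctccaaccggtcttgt
Trib3: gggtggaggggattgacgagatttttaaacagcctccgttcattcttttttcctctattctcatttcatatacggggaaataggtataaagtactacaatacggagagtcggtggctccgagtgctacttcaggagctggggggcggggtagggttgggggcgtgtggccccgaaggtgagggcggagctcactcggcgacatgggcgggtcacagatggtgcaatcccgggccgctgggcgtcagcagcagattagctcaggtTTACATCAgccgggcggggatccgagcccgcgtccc

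Among the regulators of this response, Atf4 itself was at 86.8, 73.8 and 55.1 CPM in M and at 49.5, 44.5 and 42.5 CPM in A, M above A in every library (log2 fold change 0.66 ± 0.20, adjusted p = 0.00534). Atf3, a factor that ATF4 induces, was at 13.8, 8.63 and 7.83 CPM in M and at 2.23, 1.47 and 2.4 CPM in A (2.27 ± 0.33, adjusted p = 1.54e-06). Ppp1r15a, the GADD34 subunit that directs a phosphatase back to eIF2-alpha, was at 47, 49.4 and 38.7 CPM in M and at 10.6, 9.36 and 4.52 CPM in A (2.45 ± 0.40, adjusted p = 2.43e-06). No M value of these 3 genes fell among the A values. Trib3, a pseudokinase that restrains the response, was at 42.2, 46.8 and 37 CPM in M and at 18.6, 21.1 and 15.9 CPM in A (1.18 ± 0.15, adjusted p = 8.06e-06). Ddit3, which encodes CHOP, was at 8.02, 7.35 and 9.94 CPM in M and at 4.09, 4.4 and 3.38 CPM in A (1.08 ± 0.17, adjusted p = 0.00288). Chac1, which degrades glutathione, was at 15.2, 13.5 and 13.8 CPM in M and at 6.51, 5.97 and 4.12 CPM in A (1.35 ± 0.21, adjusted p = 4.37e-05). The p53-related Sesn2, an inhibitor of mTORC1, was called higher at adjusted p = 0.0492, and 8 of 13 alternatives lost the call.

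The metabolic targets moved in the same direction. Asns, the asparagine synthetase on chromosome 6, was at 98, 140.4 and 117 CPM in M and at 51.4, 44.5 and 44.1 CPM in A (log2 fold change 1.34 ± 0.17, adjusted p = 9.44e-07). Mthfd2, the mitochondrial folate enzyme, was at 91.7, 98.7 and 75.8 CPM in M and at 29.5, 26.5 and 23.2 CPM in A (1.75 ± 0.15, adjusted p = 4.55e-09). In both, the M values overlapped the range of the other populations, with means of 84, 107 and 100.5 CPM for Mthfd2 in the parental, E1 and E2 populations, and A was below that range. Of the amino acid transporters, Slc7a5 was at 177, 194 and 195 CPM in M and at 97.2, 101 and 83.1 CPM in A (1.01 ± 0.10, adjusted p = 6.7e-06), its partner chain Slc3a2 at 110.1, 105 and 124 CPM in M and at 52.7, 52.5 and 46.4 CPM in A (1.16 ± 0.09, adjusted p = 1.26e-06) and the cystine importer Slc7a11 at 77.2, 81 and 99.6 CPM in M and at 49, 42.3 and 40.1 CPM in A (0.97 ± 0.14, adjusted p = 0.000816). Shmt2, the mitochondrial enzyme that makes glycine from serine, was called higher as well, at 43.8, 73.3 and 53.5 CPM in M and at 27.9, 31.7 and 26.9 CPM in A. The 2 members called lower in M were Vldlr, a lipoprotein receptor, at 4.63, 2.21 and 2.65 CPM in M and at 13.3, 11.4 and 12 CPM in A, and Klhl24, an adaptor of an ubiquitin ligase, at 76.3, 48.8 and 50 CPM in M and at 127, 125 and 130.3 CPM in A. The log2 fold change of Vldlr was -1.94 ± 0.32 (adjusted p = 0.00194) and that of Klhl24 -1.13 ± 0.21 (adjusted p = 0.0141), the latter call being lost in 2 of 13 alternatives.

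**Figure D3:**
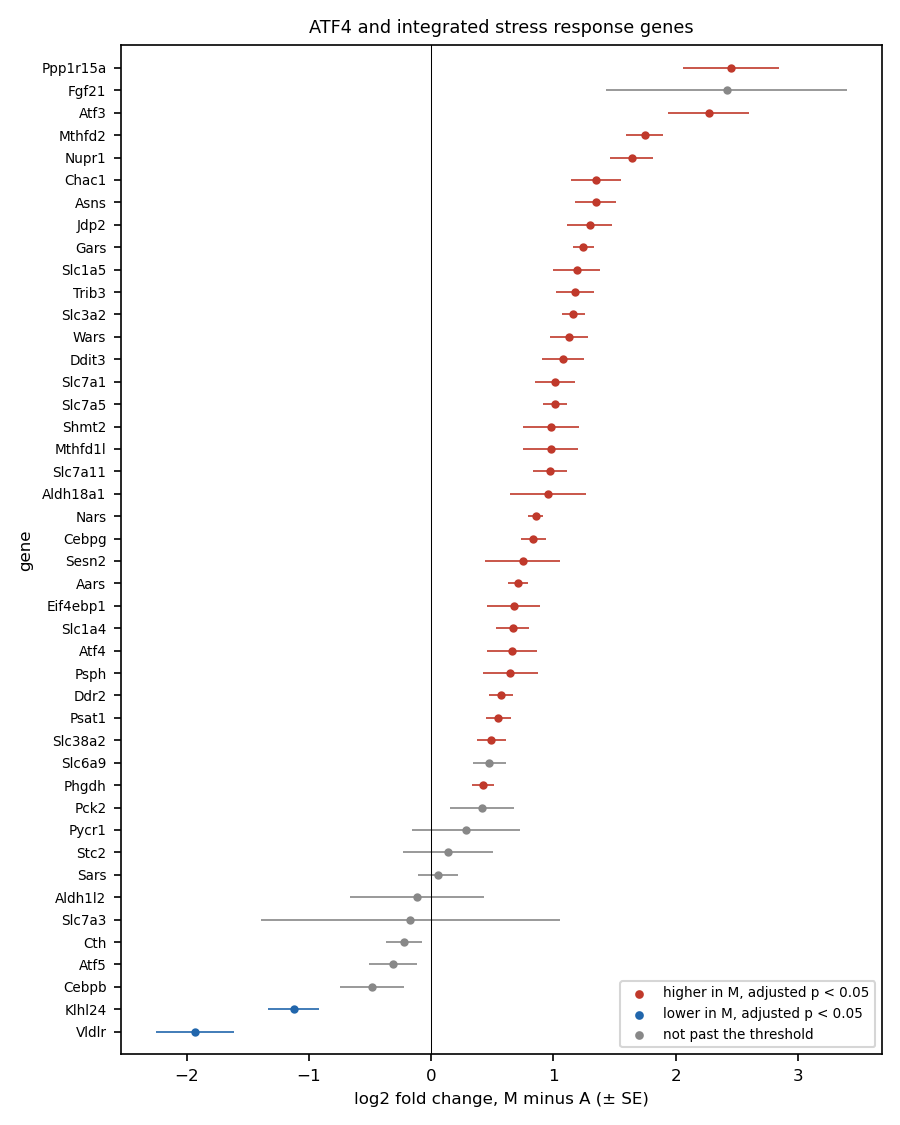
Log2 fold change of M minus A (horizontal axis, bars are SE) for the 44 tested ATF4 and integrated stress response genes, sorted. Of these, 31 red points are called higher in M, from Ppp1r15a at 2.45 downward, 2 blue points (Vldlr and Klhl24) are called lower, and grey points did not pass the threshold.

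The endoplasmic reticulum branch of the stress response did not share that direction. Of 29 tested chaperone and unfolded protein response genes, 0 were called higher and 7 lower in M (24.1%), with a median of -0.33. Xbp1, the factor activated by IRE1, was at 20.4, 20.2 and 24.7 CPM in M and at 31.3, 36.1 and 42.5 CPM in A (log2 fold change -0.75 ± 0.16, adjusted p = 0.0109). Ero1b, an oxidase that reloads protein disulfide isomerase, was at 5.24, 4.31 and 3.27 CPM in M and at 8.77, 10.2 and 13.1 CPM in A (-1.31 ± 0.26, adjusted p = 0.00239). M and A did not overlap in either gene. The count rested on single libraries: it was 4 without A replicate 2 and 1 without A replicate 3, and Ero1b was the named member called in all 13 alternatives.

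More matrix genes were called lower in M than higher. Of 35 tested noncollagen matrix genes 3 were called higher and 11 lower in M (40% called, median -0.53), and of 18 tested collagen chains 1 was higher and 6 lower (38.9%, median -0.57). Fn1, the fibronectin gene, was at 266, 455 and 330.0 CPM in M and at 787, 680.3 and 861 CPM in A (log2 fold change -1.15 ± 0.25, adjusted p = 0.0011), all A values above all M values. Sparc, a collagen-binding glycoprotein, was at 10.7, 11.5 and 13.2 CPM in M and at 20.4, 41.8 and 42.8 CPM in A (-1.56 ± 0.36, adjusted p = 0.000932). Fbln1, the matrix protein fibulin 1, was at 0, 0.172 and 0 CPM in M and at 5.12, 4.89 and 8.03 CPM in A (-5.49 ± 0.64, adjusted p = 1.41e-05), that is, 7 counts in the 3 M libraries against 565 in A. Ltbp3 and Ltbp4, which hold latent TGF-beta in the matrix, fell from 206 and 41.4 CPM in A to 93.2 and 20.1 CPM in M. Fibroblast-defining Col3a1, Dcn and Lum were at 0 in both clones, as stated above. Without M replicate 2, 18 noncollagen matrix genes were called, and without M replicate 1 their median was -0.33.

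Collagen and laminin chains were called in both directions. Of the collagens, Col4a5 was at 17.1, 18.7 and 23.5 CPM in M and at 69.5, 75.6 and 110.4 CPM in A (log2 fold change -2.11 ± 0.25, adjusted p = 2.43e-06). Col5a1, a fibrillar chain, was at 7.27, 7.33 and 6.09 CPM in M and at 16.9, 14.6 and 18.1 CPM in A (-1.25 ± 0.13, adjusted p = 0.000532). Col6a1 was at 0, 0 and 0.194 CPM in M and at 2.96, 4.7 and 5.81 CPM in A (-5.09 ± 0.70, adjusted p = 2.72e-05). All 3 were higher in every A library than in any M library. The called collagen on the M side was Col12a1, a fibril-associated chain, at 7.49, 10.7 and 7.93 CPM in M and at 2.49, 3.07 and 2.74 CPM in A (1.64 ± 0.18, adjusted p = 1.4e-05). On the same side were 2 laminin chains of epithelial basement membranes. Lama3 was at 9.43, 26.6 and 16.3 CPM in M and at 4.45, 4.76 and 3.07 CPM in A (2.08 ± 0.47, adjusted p = 4.97e-05). Lamb3 was at 18.1, 46.5 and 28.5 CPM in M and at 9.2, 8.9 and 8.64 CPM in A (1.80 ± 0.39, adjusted p = 4.78e-06). In both genes M replicate 1 was lowest among M and still above A. Lamc1, a chain of many laminins, was lower in M, with means of 113 CPM against 198 CPM in A.

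Of 32 tested metalloprotease, ADAM and TIMP genes, 3 were called higher and 11 lower in M (43.8% called, median -0.78). Adam12, a disintegrin metalloprotease, was at 11.5, 26.1 and 25.4 CPM in M and at 2.99, 3.59 and 1.66 CPM in A (log2 fold change 2.91 ± 0.51, adjusted p = 2.03e-05). A was below all 9 other libraries for Adam12, and M was among them. Adamts9, a secreted protease that cuts proteoglycans, was at 0, 0.49 and 0.0648 CPM in M and at 9.13, 6.42 and 11.7 CPM in A (-5.07 ± 0.92, adjusted p = 2.45e-05). Adamts4, an aggrecanase, was at 0.529, 0.662 and 0.356 CPM in M and at 2.66, 4.4 and 3.84 CPM in A (-2.66 ± 0.31, adjusted p = 0.000564). Reck, a membrane-anchored inhibitor of metalloproteases, was at 2.78, 1.2 and 2.78 CPM in M and at 6.61, 7.66 and 11.1 CPM in A (-1.89 ± 0.45, adjusted p = 0.00169), so that an inhibitor fell together with proteases. Mmp3, stromelysin 1, was at 7.1, 38.4 and 20.2 CPM in M and at 134, 172 and 112 CPM in A. The clones did not overlap, but M values spread 5-fold, and the call (log2 fold change -2.66 ± 0.73, adjusted p = 0.0244) was lost in 5 of 13 alternatives. The sheddase Adam10 and the membrane protease Mmp14 were called lower in M, with means of 91.2 and 29.3 CPM against 184 and 45.8 CPM in A, while Adam9 was called higher at 129 against 65.5 CPM.

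Serpins of the plasminogen system went in opposite directions. Of 24 tested plasminogen, coagulation and serpin genes 3 were called higher and 5 lower (33.3%), with a median of -0.03 that ran from -0.21 without M replicate 3 to 0.06 without M replicate 1. Beside Serpinb2, Serpinb5, which encodes maspin, was at 1.01, 5.44 and 3.82 CPM in M and had 0 counts in all 3 A libraries. Against a floor of 3 counts over the A libraries it was at least 106-fold higher in M (adjusted p = 1.29e-07). Serpine2, protease nexin-1, was at 0.793, 2.03 and 0.518 CPM in M and at 15.8, 15.7 and 14.1 CPM in A (log2 fold change -3.66 ± 0.55, adjusted p = 3.58e-07). Tfpi, the inhibitor of tissue factor, was at 0.0881, 0.294 and 0.907 CPM in M and at 7.77, 3.07 and 7.53 CPM in A (-3.62 ± 0.88, adjusted p = 0.00177). Pros1, the anticoagulant protein S, was at 1.67, 1.37 and 2.75 CPM in M and at 9.43, 10 and 11.9 CPM in A (-2.40 ± 0.30, adjusted p = 4.95e-05). In these 3 genes A was above every other library. F2r, the thrombin receptor, was lower in M as well, with means of 66.8 against 129 CPM.

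Epithelial genes were more often higher in M. Of 40 tested junction and keratin genes 11 were called higher and 3 lower (35.0% called, median 0.18), a count that fell to 8 without A replicate 2 and a median that was 0.31 without A replicate 3. Cdh1, E-cadherin, was at 31.2, 45.8 and 32 CPM in M and at 21.1, 19.9 and 26.1 CPM in A, M above A in every library (log2 fold change 0.70 ± 0.21, adjusted p = 0.0132), a call lost in 3 of 13 alternatives. Esrp1, the epithelial splicing regulator, was at 52.4, 44.7 and 47.2 CPM in M and at 23.6, 19.2 and 25.1 CPM in A (1.08 ± 0.13, adjusted p = 6.53e-06), and the tight junction gene Cldn7 at 11.2, 10.5 and 10.7 CPM in M and at 4.12, 2.9 and 3.6 CPM in A (1.59 ± 0.15, adjusted p = 0.000199). Neither gene overlapped between the clones. Dsp, desmoplakin, was at 38.2, 61.1 and 54 CPM in M and at 26.8, 30 and 36.7 CPM in A (0.71 ± 0.24, adjusted p = 0.00368). The keratins did not move together. Krt19 was at 7.76, 10.3 and 7.35 CPM in M and at 3.02, 3.85 and 2.68 CPM in A (1.40 ± 0.21, adjusted p = 0.000636), whereas Krt8 was at 75.4, 173 and 128 CPM in M and at 193, 212 and 200 CPM in A (-0.68 ± 0.35, adjusted p = 0.022), a call lost in 5 of 13 alternatives. Krt18, the partner of Krt8, missed the threshold (adjusted p = 0.0787) and was called lower in 4 of 13 alternatives, 1 of them the fit without M replicate 2. Dsc2, a desmosomal cadherin, was lower in M, at 2.73, 2.18 and 2.53 CPM in M and at 6.28, 7.79 and 9.84 CPM in A (-1.66 ± 0.21, adjusted p = 0.000269).

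Mesenchymal genes split. Of 18 tested, 4 were called higher and 5 lower in M (50%, median -0.36). Snai2, which encodes the transcription factor SLUG, was at 3.31, 4.34 and 4.76 CPM in M and at 0.332, 1.3 and 0.922 CPM in A (log2 fold change 2.19 ± 0.55, adjusted p = 0.0102), and 1 of 13 alternatives lost the call at adjusted p = 0.0567. Tcf4, an E-box factor, was at 75.7, 91.1 and 91.9 CPM in M and at 299.7, 309 and 356 CPM in A (-1.90 ± 0.12, adjusted p = 3.24e-09). Pdgfra, a receptor of platelet-derived growth factors, was at 6.08, 12.1 and 8.94 CPM in M and at 21, 24.4 and 33.8 CPM in A (-1.53 ± 0.35, adjusted p = 0.000789). Both were higher in every A library. Axl, a receptor kinase of high level in all populations, was at 895, 1058 and 988 CPM in M and at 677, 663 and 652 CPM in A (0.56 ± 0.07, adjusted p = 0.00399). Eng, endoglin, which is also a marker of endothelial cells, was at 11.1, 8.55 and 8.03 CPM in M and at 20.3, 17.4 and 20.8 CPM in A (-1.08 ± 0.16, adjusted p = 0.00090). The endothelial receptor gene Flt1 was lower in M as well (-1.25 ± 0.11, adjusted p = 0.000562), while Cdh5 and Vwf were at 0.

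Of the adhesion and guidance molecules of the cell surface most did not pass the test, and more were called lower in M than higher. Of 34 tested adhesion molecules 2 were called higher and 10 lower (35.3%, median -0.26), of 32 axon guidance genes 1 higher and 8 lower (28.1%, median -0.38) and of 21 integrin subunits 2 higher and 3 lower (23.8%, median -0.20). Among all genes 17.7% were called. The integrin median was -0.10 without M replicate 1, -0.32 without M replicate 2 and -0.35 without A replicate 2. Selp, P-selectin, was at 1.23, 3.99 and 3.08 CPM in M and at 17.7, 20.5 and 17 CPM in A (log2 fold change -2.69 ± 0.50, adjusted p = 8.6e-06). Cd81, a tetraspanin, was at 24.4, 17.9 and 26.9 CPM in M and at 68, 85 and 77.3 CPM in A (-1.73 ± 0.20, adjusted p = 1.69e-07). Both genes were higher in all A libraries than in any other library of the series. Sema7a, a membrane-anchored semaphorin on chromosome 9, was at 8.06, 8.85 and 10.3 CPM in M and at 41.3, 37.6 and 44.5 CPM in A (-2.17 ± 0.12, adjusted p = 7.03e-07). Sema6d was at 3.35, 6.35 and 4.27 CPM in M and at 19.7, 19.2 and 22.9 CPM in A (-2.13 ± 0.28, adjusted p = 0.00841). Flrt3 was at 4.98, 6.98 and 6.41 CPM in M and at 20.1, 19.1 and 22.6 CPM in A (-1.73 ± 0.16, adjusted p = 9.37e-06). For all 8 guidance genes called lower in M, A was above the 9 other libraries, against 703 of all 1087 genes called lower. Among integrins, Itgb6, the epithelial beta subunit that activates latent TGF-beta, was at 1.06, 1.86 and 0.809 CPM in M and at 0.266, 0 and 0.184 CPM in A (2.59 ± 0.78, adjusted p = 0.00756). Itga2, a collagen receptor subunit, was at 47.5, 98.6 and 58.7 CPM in M and at 34, 35.4 and 40.1 CPM in A (0.90 ± 0.32, adjusted p = 0.00215). Both were higher in M. Itga1, another collagen receptor subunit, was lower, at 1.89, 1.32 and 2.23 CPM in M and at 8.01, 8.68 and 10.9 CPM in A (-2.30 ± 0.25, adjusted p = 0.00206).

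Class I antigen presentation genes were lower in M at several steps. Of 27 listed genes 26 were tested, and 1 was called higher and 11 lower in M (46.2% called, median -0.81 against -0.02 of all genes), with 11 to 12 called when any library was left out. For 9 of the 11, A was above all libraries of the other populations, and M was within their range for all 11. Of all 1087 genes called lower in M, A was above for 703 and M within the range for 1019. B2m, the light chain of every class I molecule, was at 57.8, 62.1 and 64.2 CPM in M and at 109, 121 and 117 CPM in A (log2 fold change -0.91 ± 0.06, adjusted p = 4.97e-05). Of the heavy chains, H2-K1 was at 30.5, 28.4 and 28.3 CPM in M and at 53.1, 68 and 63.5 CPM in A (-1.08 ± 0.11, adjusted p = 1.23e-05). H2-D1 was at 43.1, 32.9 and 41.8 CPM in M and at 69.7, 73.2 and 89.3 CPM in A (-0.98 ± 0.16, adjusted p = 0.000114). No M value reached the A values in these 3 genes. Heavy chain genes are near copies of one another, so that the split of reads among them is uncertain, while B2m has no such copy.

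The loading machinery moved alike. Tap1, a subunit of the peptide transporter, was at 0.881, 1.81 and 1.52 CPM in M and at 4.95, 4.79 and 5.78 CPM in A (log2 fold change -1.81 ± 0.31, adjusted p = 0.00125). Tap2, its partner, was at 3.75, 2.4 and 2.53 CPM in M and at 6.71, 8.81 and 5.47 CPM in A (-1.26 ± 0.28, adjusted p = 0.00691). Psmb8, an immunoproteasome subunit, was at 2.07, 1.67 and 1.52 CPM in M and at 7.44, 7.34 and 8.33 CPM in A (-2.10 ± 0.14, adjusted p = 4.27e-05). The clones did not overlap in any of them. Nlrc5, the transactivator of class I genes, was at 13.3, 11.5 and 10.4 CPM in M and at 27.7, 18.5 and 25.6 CPM in A (-1.03 ± 0.20, adjusted p = 0.000662). The single member called higher in M was Tapbpl, a peptide editor on chromosome 6, at 1.67, 3.21 and 3.17 CPM in M and at 0.731, 0.848 and 1.45 CPM in A (1.36 ± 0.41, adjusted p = 0.0187), which 4 alternatives did not call. Cd274, which encodes the checkpoint ligand PD-L1, did not pass the test (1.10 ± 0.51, adjusted p = 0.0936).

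Interferon response genes as a whole had no common direction. Of 44 tested, 4 were called higher and 8 lower in M (27.3%), with a median of -0.01 that ran from -0.10 without A replicate 2 to 0.09 without M replicate 2. The guanylate-binding protein genes Gbp4 and Gbp9 were lower in M, Gbp4 at 2.38, 2.55 and 4.08 CPM in M and at 14, 12 and 18.8 CPM in A (-2.29 ± 0.31, adjusted p = 1.82e-05). Gbp9 was at 6.57, 7.48 and 6.7 CPM in M and at 23.3, 20.5 and 21.7 CPM in A (-1.65 ± 0.08, adjusted p = 2.22e-05). Rsad2, the antiviral protein viperin, was at 1.32, 1.72 and 1.91 CPM in M and at 0, 0.326 and 0.123 CPM in A (2.98 ± 0.75, adjusted p = 0.00541). Oasl1 was at 5.51, 5.66 and 9.58 CPM in M and at 2.36, 2.77 and 2.58 CPM in A (1.41 ± 0.27, adjusted p = 0.00479). Both were higher in M. Nlrc5 is in this list too. Among 30 tested cytokines and chemokines, 5 were called higher and 4 lower (30%). Cxcl16, a chemokine with a scavenger receptor role, was at 22.2, 24.2 and 22.1 CPM in M and at 5.71, 8.77 and 6.15 CPM in A (1.72 ± 0.19, adjusted p = 2.43e-07). Cx3cl1, fractalkine, was at 0.573, 3.04 and 0.453 CPM in M and at 12.4, 10.1 and 7.78 CPM in A (-2.81 ± 0.83, adjusted p = 0.00124). Tslp, an epithelial cytokine, was at 3.92, 7.94 and 4.37 CPM in M and at 20.1, 18.3 and 22.7 CPM in A (-1.89 ± 0.33, adjusted p = 1.23e-05). The first was higher and the other two lower in M, with no overlap of libraries.

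**Figure D4:**
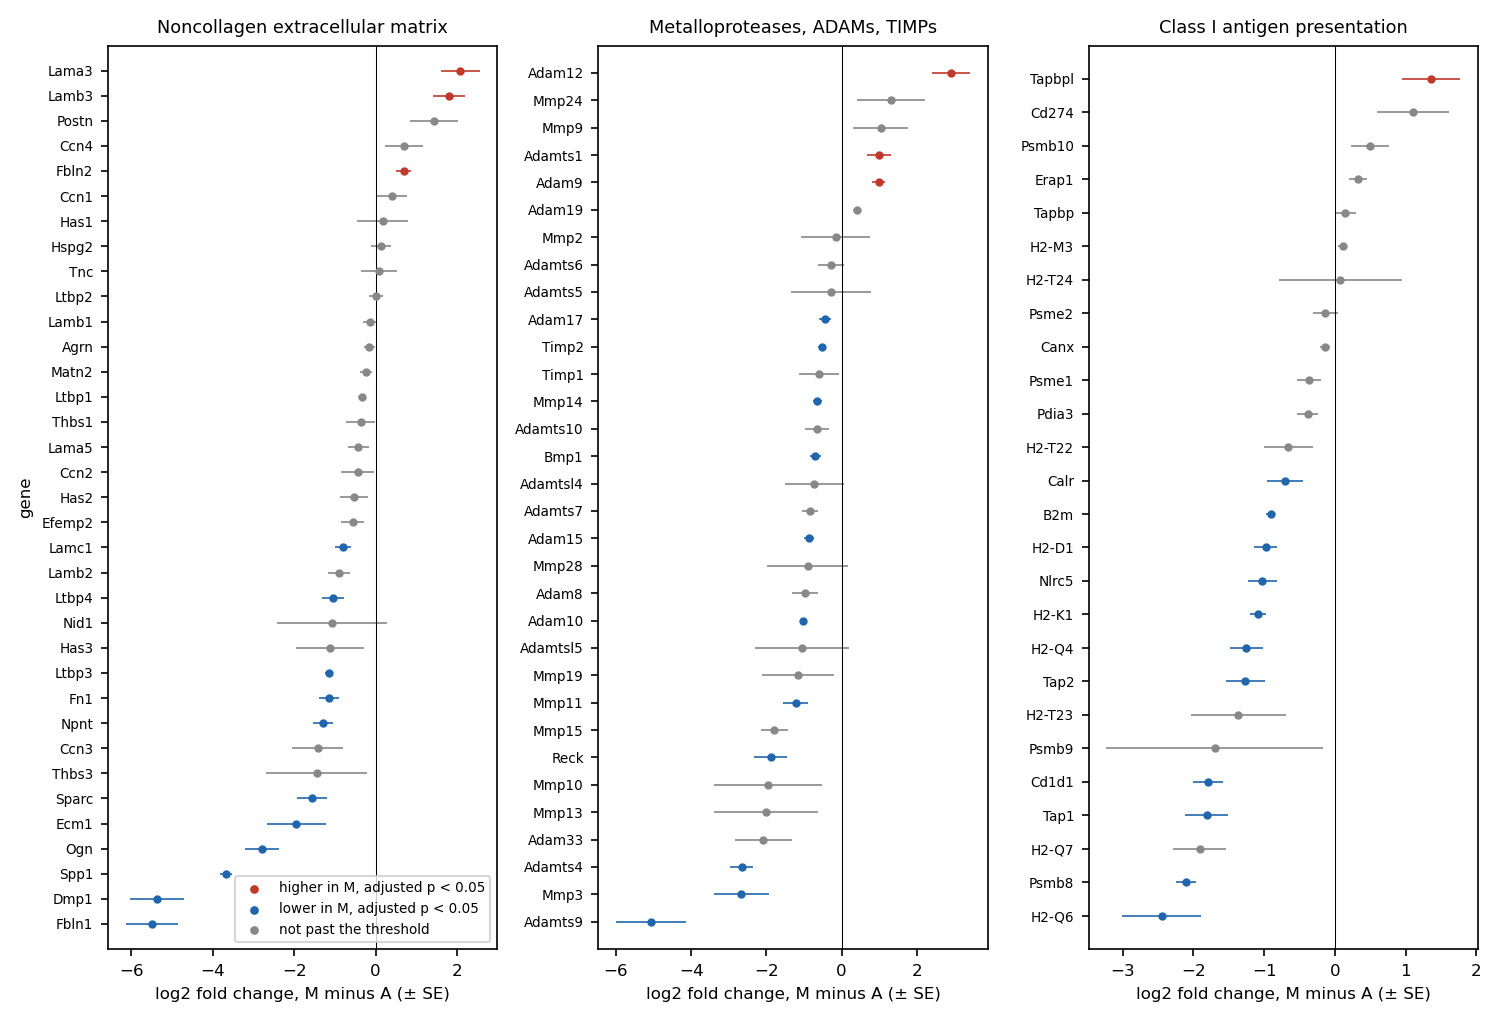
Log2 fold change of M minus A (horizontal axes, bars are SE) for 35 noncollagen matrix genes, 32 metalloprotease, ADAM and TIMP genes and 26 class I antigen presentation genes. Blue points, called lower in M, number 11 in each panel, and red points, called higher in M, number 3, 3 and 1.

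Of 41 tested TGF-beta and BMP pathway genes 1 was called higher and 12 lower in M (31.7%), and the other 28 did not pass. Their median was -0.39, and -0.22 without A replicate 3. Of the receptors, Tgfbr3, the co-receptor betaglycan, was at 1.72, 1.89 and 2.85 CPM in M and at 7.94, 9.33 and 9.47 CPM in A (log2 fold change -2.01 ± 0.23, adjusted p = 0.000112), and Tgfbr1, a signalling receptor, was called lower at 93.9 against 156 CPM. Smad3, the factor the receptors phosphorylate, was at 86.2, 86.1 and 83.7 CPM in M and at 164, 150 and 159 CPM in A (-0.89 ± 0.04, adjusted p = 1.86e-05). Of the target genes, Id2 was at 2.42, 3.97 and 3.17 CPM in M and at 16.8, 22.5 and 15.4 CPM in A (-2.48 ± 0.26, adjusted p = 2.29e-05). Id3 was at 2.03, 3.38 and 3.53 CPM in M and at 11, 12.1 and 12.9 CPM in A (-1.97 ± 0.26, adjusted p = 2.93e-05). Both encode inhibitors of basic helix-loop-helix factors, as does Id4, which was at 0, 0.294 and 0.13 CPM in M and at 2.26, 3.2 and 4.3 CPM in A (-3.93 ± 0.75, adjusted p = 0.00265). Their A libraries were all above their M libraries. Fstl1, a secreted antagonist, was the member higher in M, at 3.39, 3.21 and 2.78 CPM in M and at 0.598, 0.457 and 1.35 CPM in A (1.87 ± 0.44, adjusted p = 0.00332).

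Notch genes differed in ligands and receptor. Of 21 tested, 3 were called higher and 7 lower in M (47.6%, median -0.18), and 5 were called without M replicate 3 and 6 without A replicate 1. The median was -0.28 without M replicate 1 and -0.05 without M replicate 2. Jag1, a ligand, was at 90.3, 109.6 and 106 CPM in M and at 38.9, 30.8 and 39.6 CPM in A (log2 fold change 1.48 ± 0.14, adjusted p = 1.11e-06), and the ligand Dll4 was at 0.529, 1.89 and 0.356 CPM in M and at 6.31, 7.66 and 5.47 CPM in A (-2.71 ± 0.68, adjusted p = 0.0146), a call lost in 2 alternatives. The first was higher and the second lower in M. Notch1, the receptor, was at 8.2, 6.4 and 11.8 CPM in M and at 35, 26.7 and 43.5 CPM in A (-1.99 ± 0.33, adjusted p = 3.38e-05). Nrarp, a target of the pathway, was lower in M, at 16, 9.71 and 10.3 CPM in M and at 22.3, 21.6 and 23.5 CPM in A (-0.91 ± 0.23, adjusted p = 0.00561).

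In the Wnt pathway 3 of 33 tested genes were called higher and 9 lower (36.4%, median -0.32), 7 in all without M replicate 3, where the median was -0.19. Beside the ligand Wnt7a, described above, the receptor Fzd4 was higher in M, at 17.3, 18 and 18.9 CPM in M and at 8.84, 7.04 and 9.29 CPM in A (log2 fold change 1.10 ± 0.13, adjusted p = 0.000269). Lgr6, an R-spondin receptor known as a stem cell marker, was at 6.96, 14.7 and 12.1 CPM in M and at 85.5, 74.3 and 77.8 CPM in A (-2.80 ± 0.33, adjusted p = 1.87e-07). Sfrp1, a secreted antagonist, was at 6.26, 11.9 and 6.96 CPM in M and at 23.5, 24.9 and 31.3 CPM in A (-1.65 ± 0.31, adjusted p = 1.49e-05). Ctnnb1, beta-catenin, was at 263, 393 and 325 CPM in M and at 534, 600.3 and 529 CPM in A (-0.76 ± 0.18, adjusted p = 0.000628). These 3 were lower in every M library than in any A library.

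Of 35 tested YAP and TEAD genes 12 were called higher and 6 lower (51.4%, median 0.21). The median was 0.39 without M replicate 1 and 0.11 without M replicate 2. The co-activators were lower in M. Wwtr1, which encodes TAZ, was at 116, 142 and 135 CPM in M and at 209, 239.8 and 245 CPM in A (log2 fold change -0.82 ± 0.11, adjusted p = 0.00127). Yap1 was at 68.7, 78.6 and 70.8 CPM in M and at 99.8, 87.1 and 117 CPM in A (-0.48 ± 0.14, adjusted p = 0.0304), a call lost in 4 alternatives. Tead2 was lower (-0.95 ± 0.18, adjusted p = 0.000724) and Tead4 higher (1.05 ± 0.24, adjusted p = 0.0155) in M, the latter on chromosome 6 and lost in 2 alternatives. The classical targets Ccn1 and Ccn2 did not pass the test, with log2 fold changes of 0.39 ± 0.38 and -0.44 ± 0.41 (adjusted p = 0.495 and 0.24), while without M replicate 2 Ccn2 was called lower.

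Among 55 tested growth factors and receptor tyrosine kinases 6 were called higher and 12 lower (32.7%, median -0.23). Nrg1, the neuregulin ligand of ERBB receptors, was at 1.67, 3.11 and 2.85 CPM in M and at 0.465, 0.326 and 1.08 CPM in A (log2 fold change 1.92 ± 0.53, adjusted p = 0.00782). Epha1, an ephrin receptor on chromosome 6, was at 15.5, 29.2 and 20.9 CPM in M and at 8.6, 9.75 and 6.95 CPM in A (1.37 ± 0.30, adjusted p = 0.000271). Mertk, a relative of Axl, was at 0, 0.123 and 0 CPM in M and at 2.39, 1.21 and 3.6 CPM in A (-4.44 ± 0.66, adjusted p = 0.00305). Fgfr1 was at 0.0881, 0.637 and 0.259 CPM in M and at 1.49, 3.42 and 2.83 CPM in A (-2.71 ± 0.72, adjusted p = 0.0248), a call that 4 alternatives lost. Nrg1 and Epha1 were higher, and the other 2 lower in M. Fgfr2 was lower as well, at 34.7 against 77 CPM, and Igf2bp1, an RNA-binding protein that holds growth-related messages, was higher, at 12.5, 12.9 and 12 CPM in M and at 3.65, 5.61 and 4.8 CPM in A (1.40 ± 0.18, adjusted p = 0.000745). Myc was at 101, 92.5 and 90.6 CPM in M and at 34.2, 40.9 and 37.6 CPM in A (1.33 ± 0.09, adjusted p = 5.59e-07). M was higher than A for Myc, and the means of the parental, E1 and E2 populations, 193, 153 and 130.4 CPM, were higher than both.

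In sterol metabolism the synthesis and export genes went apart. Of 35 tested genes 9 were called higher and 4 lower (37.1%, median 0.49, and 0.18 without M replicate 2). Lss, lanosterol synthase, was at 5.46, 16.8 and 9.71 CPM in M and at 2.62, 4.5 and 2.55 CPM in A (log2 fold change 1.71 ± 0.53, adjusted p = 0.000655). Msmo1, a sterol oxidase, was at 43.4, 63.4 and 42.8 CPM in M and at 16.4, 26.5 and 17.6 CPM in A (1.30 ± 0.28, adjusted p = 8.76e-05). Srebf2, the master factor of the pathway, was at 30.8, 62.5 and 34.3 CPM in M and at 17.4, 22.8 and 14.4 CPM in A (1.23 ± 0.37, adjusted p = 0.00244). M replicate 2 was the highest M library in all 3. The cholesterol exporter Abca1 had 0 counts in all 3 M libraries and was at 1.03, 0.815 and 2.09 CPM in A, at least 41.3-fold lower in M by a floor of 3 counts over the 3 libraries (adjusted p = 0.00172). Abcg1, a second exporter, was at 0.0881, 0.098 and 0.13 CPM in M and at 1.59, 1.47 and 2.64 CPM in A (-3.50 ± 0.28, adjusted p = 0.00242). Mylip, which degrades the LDL receptor, was at 6.13, 1.72 and 5.28 CPM in M and at 11.4, 13.9 and 14.3 CPM in A (-1.59 ± 0.58, adjusted p = 0.00194). The 4 members lower in M were thus Abca1, Abcg1, Mylip and Vldlr.

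Fatty acid genes showed 4 higher and 1 lower of 28 tested (17.9%, near the 17.7% of all genes), with 8 called by DESeq2, 2 without A replicate 3 and 3 without M replicate 3 or without A replicate 1. Among the 4 were Fads3, a desaturase family member, at 44.1, 64.4 and 55 CPM in M and at 22.3, 22.4 and 14.7 CPM in A (log2 fold change 1.46 ± 0.26, adjusted p = 2.43e-06). Acsl5, an acyl-CoA synthetase, was at 97.6, 155 and 143 CPM in M and at 61.6, 52.9 and 62.2 CPM in A (1.16 ± 0.22, adjusted p = 1.89e-05). Of 12 tested drug efflux transporters 6 were called higher and 1 lower (58.3%, median 0.58), but 3 in all without A replicate 2 or without A replicate 3 and 4 without M replicate 2. Abcc4, a multidrug resistance protein, was at 14.1, 17.5 and 13.6 CPM in M and at 5.58, 5.54 and 4.12 CPM in A (1.56 ± 0.18, adjusted p = 1.05e-05). Abcc3, a close relative, was at 0.0881, 0.515 and 0.13 CPM in M and at 4.75, 2.48 and 3.9 CPM in A (-3.55 ± 0.64, adjusted p = 0.00253). They moved in opposite directions. Glycolysis genes had 5 higher and 2 lower of 25 tested (28%), with Hk2 and Pfkfb3 already described and Ldha, lactate dehydrogenase A, at 255, 341 and 224 CPM in M and at 160.3, 180.3 and 191 CPM in A (0.63 ± 0.19, adjusted p = 0.0127), which 2 alternatives lost. Without A replicate 2, 4 of the list were called. Hypoxia response genes had 1 higher and 6 lower of 24 (29.2%), but 3 in all without M replicate 1 or without A replicate 3 and 4 without M replicate 3, and no named member was called in every alternative.

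Mitochondrially encoded genes were lower in M. The 13 protein genes summed to 4230, 4520 and 4450 CPM in M and to 6100, 6990 and 6310 CPM in A, and the 9 other libraries ranged from 3480 to 6350 CPM. All 13 had a negative log2 fold change, with a median of -0.56, and 8 were called (61.5%). mt-Nd2, a subunit of complex I, was at 343, 357 and 358 CPM in M and at 550.0, 604 and 543 CPM in A (log2 fold change -0.68 ± 0.05, adjusted p = 0.00368), and mt-Cytb of complex III at 682, 715 and 689 CPM in M and at 972, 1083 and 1020.5 CPM in A (-0.56 ± 0.05, adjusted p = 0.00774). A was above M in every library of these genes. The number called was 4 without M replicate 1, 5 without M replicate 2, 5 without M replicate 3, 3 without A replicate 2 and 4 without A replicate 3. Mitochondrial transcripts were listed as a sign of RNA quality, and whether RNA quality differed was not tested. Of 72 tested nuclear-encoded respiratory chain genes 5 were called higher and 1 lower (8.33%, below the 17.7% of all genes, and 3 in all without A replicate 3), and 3 of the 5 higher ones, Cycs, Ndufa4 and Ndufa9, lie on chromosome 6. The call of Ndufa4 was lost without M replicate 2 and without A replicate 3. Cycs, cytochrome c, was at 23.6, 16.2 and 18.9 CPM in M and at 6.98, 6.82 and 4.7 CPM in A (1.66 ± 0.24, adjusted p = 6.06e-06).

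Lysosomal genes had 1 called higher and 9 lower of 24 tested (41.7%, median -0.39), 6 in all without M replicate 1 or without M replicate 2 and 5 without A replicate 3. Ctsl, the protease cathepsin L, was at 104, 167 and 107 CPM in M and at 267, 350.5 and 273 CPM in A (log2 fold change -1.24 ± 0.26, adjusted p = 1.77e-05). Ctsa, a protective carboxypeptidase, was at 3.79, 6.47 and 6.02 CPM in M and at 8.74, 13.6 and 13.2 CPM in A (-1.11 ± 0.31, adjusted p = 0.00421). Ctsc, which activates granule proteases, was the member higher in M, at 3.26, 3.75 and 1.33 CPM in M and at 0.698, 0.815 and 0.43 CPM in A (1.99 ± 0.52, adjusted p = 0.000941). In the Bcl2 family 4 were called higher and 3 lower of 16 tested (43.8%, median 0.36). The pro-apoptotic Bcl2l11, which encodes BIM, was at 80.6, 54.9 and 81.7 CPM in M and at 179, 169 and 187 CPM in A (-1.30 ± 0.19, adjusted p = 0.000284). Bid, another BH3-only member on chromosome 6, was at 18.6, 16 and 18.5 CPM in M and at 7.84, 12.1 and 9.13 CPM in A (0.86 ± 0.20, adjusted p = 0.00496). The first was lower in M, as was Bmf, and the second higher. The protective Mcl1 was lower, at 82.8, 67.7 and 74.8 CPM in M and at 119, 105 and 132 CPM in A (-0.66 ± 0.13, adjusted p = 0.00862), lost in 1 alternative.

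Proliferation genes showed few calls. Of 61 tested cell cycle genes 3 were called higher and 5 lower (13.1%, below 17.7%), but 21 were called without M replicate 2, 2 without M replicate 3, 2 without A replicate 1 and 4 without A replicate 2. Of 38 tested histone genes 0 were called by edgeR, with 1 at an unadjusted p under 0.05, and 1 was called by DESeq2, 3 by edgeR with no filter on low counts, 2 without M replicate 1 and 13 without M replicate 2. The sums of both lists in M replicate 2 are given above, and their part in these counts was not tested beyond leaving that library out. Ccnd2, the cyclin of G1 phase on chromosome 6, was at 371, 289.8 and 352 CPM in M and at 163, 165 and 196 CPM in A (log2 fold change 0.95 ± 0.14, adjusted p = 0.000102), a call kept in all 13 alternatives. Of 29 tested p53 targets and CDK inhibitors 6 were higher and 2 lower (27.6%), 5 in all without A replicate 3. Aen, a p53-induced nuclease, was at 9.78, 6.74 and 6.54 CPM in M and at 2.59, 1.99 and 2.31 CPM in A (1.71 ± 0.21, adjusted p = 0.000183). Gadd45a, a growth arrest gene on chromosome 6, was at 10.2, 13.8 and 9.0 CPM in M and at 3.99, 3.69 and 4.83 CPM in A (1.39 ± 0.21, adjusted p = 5.22e-05). Of 74 tested cytosolic ribosomal protein genes 1 was higher and 1 lower (2.7%), with 5 called without M replicate 1, 4 without A replicate 1 and 1 without A replicate 2.

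Genes that respond to the handling of cells went in both directions. Of 36 tested AP-1 and immediate early genes 4 were called higher and 5 lower (25%), and their sums were 1350, 1250 and 1340 CPM in M and 1110, 1190 and 1240 CPM in A. Of 23 tested heat shock genes 4 were higher and 3 lower (30.4%), with sums of 2700 to 2990 CPM in M and 2360 to 2880 CPM in A. The 9 other libraries ranged from 942 to 1420 CPM for the AP-1 genes and from 3030 to 3550 CPM for the heat shock genes. All M and A heat shock sums were thus below those of the other populations. Fosb, an AP-1 subunit, was at 8.46, 5.56 and 7.87 CPM in M and at 21.8, 16.8 and 12.1 CPM in A (log2 fold change -1.21 ± 0.31, adjusted p = 0.00553), a call that 1 alternative lost. Hspd1 and Hspa9, chaperones of the mitochondrial matrix, were higher in M, Hspd1 at 469.6, 378 and 453 CPM in M and at 234, 265 and 290.2 CPM in A (0.72 ± 0.13, adjusted p = 0.000562). Hspa9 was at 358, 443 and 451 CPM in M and at 251, 261 and 277 CPM in A (0.67 ± 0.12, adjusted p = 0.000907). Of 35 tested NRF2 target and glutathione genes 3 were higher and 3 lower (17.1%, near the 17.7% of all genes). Hmox1, heme oxygenase 1, was at 4.23, 4.58 and 4.53 CPM in M and at 1.26, 0.978 and 0.307 CPM in A (2.31 ± 0.56, adjusted p = 3.91e-05), and Nfe2l2, which encodes NRF2, was lower in M, at 39, 50.3 and 41.2 CPM in M and at 68.4, 75.2 and 70.7 CPM in A (-0.71 ± 0.12, adjusted p = 0.00368).

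Of the remaining lists, mineralized matrix and osteoblast genes had 0 called higher and 4 lower of 10 tested (40%, median -1.27). These were Spp1, Dmp1 and Sparc, described above, and Ank, a pyrophosphate transporter, at 40.8, 66.4 and 50.8 CPM in M and at 98.2, 103 and 108 CPM in A (log2 fold change -0.97 ± 0.21, adjusted p = 8.62e-05). Mammary luminal genes had 1 higher and 3 lower of 14 tested (28.6%), and 2 called in all without A replicate 3. Mammary basal genes had 0 higher and 3 lower of 12 (25%, with 5 called in a fit of the M and A libraries only). These were Mylk, Jag2 and Id4, and the call of Jag2 was lost in 5 of 13 alternatives, at adjusted p up to 0.17. Of 53 tested actin cytoskeleton genes 7 were higher and 4 lower (20.8%, against 17.7% of all genes). Stem cell and progenitor genes had 2 higher and 2 lower of 17 (23.5%, against 17.7% of all genes). Hedgehog genes had 0 higher and 2 lower of 11 (18.2%, near the 17.7% of all genes), 1 without A replicate 3 and 4 in the fit of the M and A libraries only. Homeobox cluster genes had 0 higher and 1 lower of 9 (11.1%, below it), a call that 6 alternatives lost, among them the fits without M replicate 1, M replicate 3, A replicate 1 and A replicate 3.

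**Figure D5:**
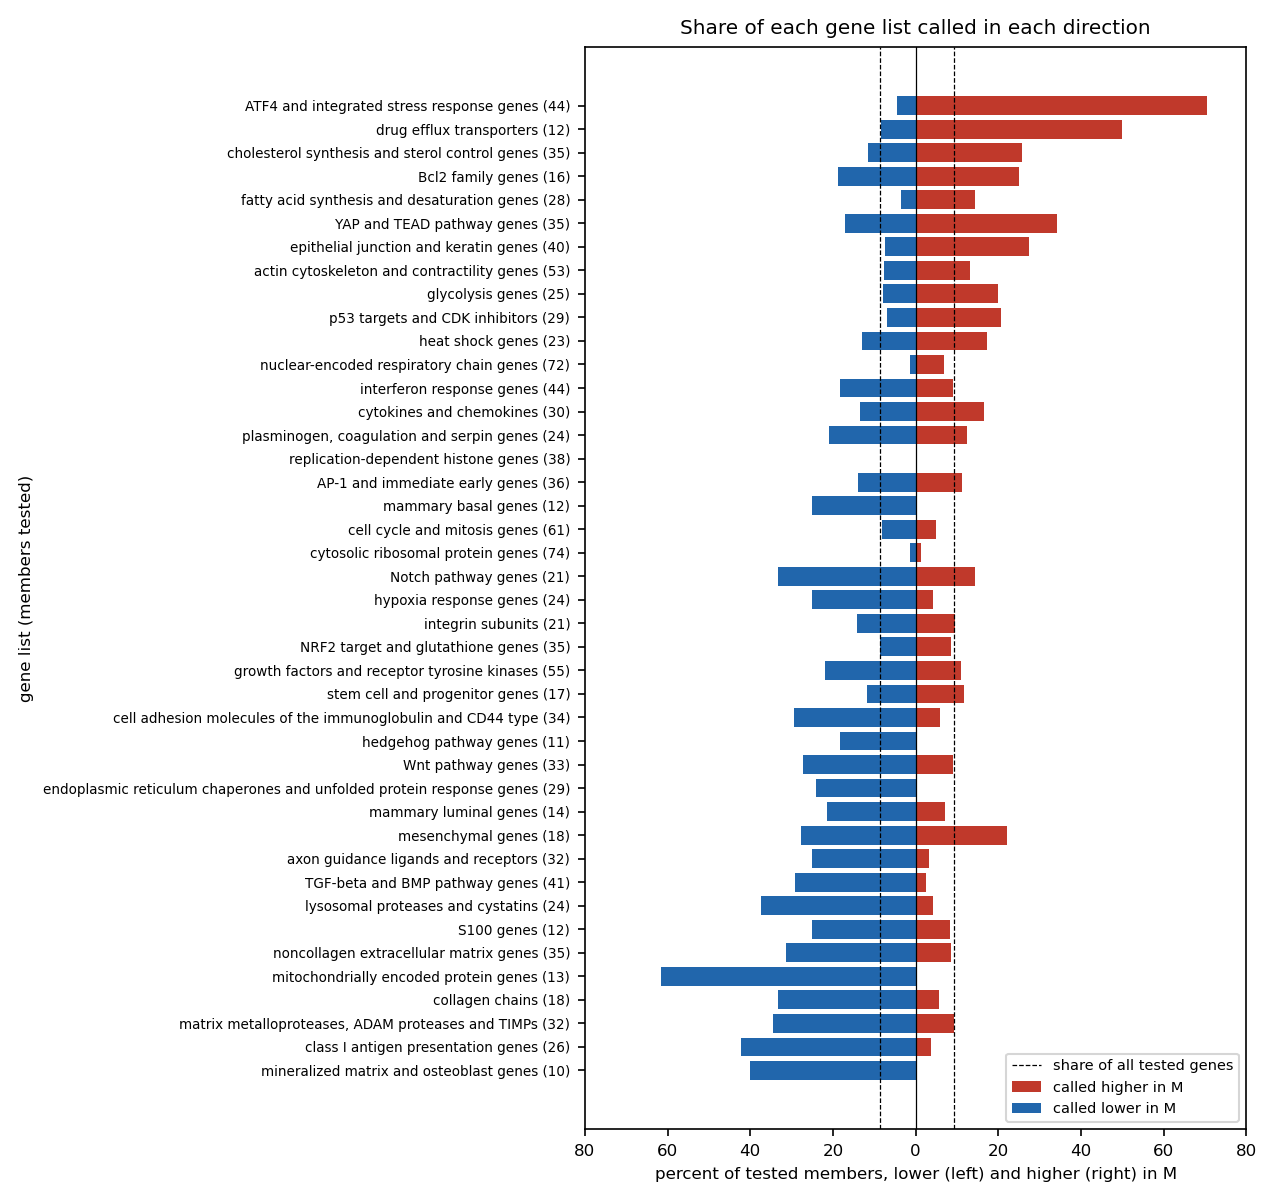
Percent of the tested members of each gene list called lower (blue, to the left) and higher (red, to the right) in M, with the number tested in parentheses and lists sorted by their median log2 fold change. Dashed lines mark the 8.55% and 9.2% of all tested genes, and among lists with at least 10 tested genes the ATF4 genes, with 31 of 44 higher, and the mitochondrially encoded genes, with 8 of 13 lower, reach farthest from them. Of the 3 tested endothelial markers 2 were called lower.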

How the data were processed

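RNA of 15 cultures, 3 of each of 5 populations, was sequenced from strand-specific libraries. The authors aligned reads with HISAT2 and counted reads per gene with featureCounts against GRCm38 (mm10), per the submitters' processing notes and the file headers. Versions and the strand setting of the counting are not given in the sources used here, so overlapping and antisense genes cannot be told apart. The deposited values are whole-number counts per Entrez identifier (27179 identifiers, 25275 named from the RefSeq gene table). The 4 deposited tables of the whole series were not used.

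Genes were kept by edgeR's filterByExpr (minimum count 10, total 15), scaled by TMM and tested with edgeR 4.0.16 (quasi-likelihood F test, robust, R 4.3.3, limma 3.58.1) in a fit of all 15 libraries, with Benjamini-Hochberg adjustment over 12712 genes and a threshold of 0.05. Log2 fold changes use a prior count of 2, and ± beside them is an SE from the SD of log2 CPM over 3 libraries a clone. In counts simulated for M against A over 12446 genes, 47% of genes changed 2-fold and 75% of genes changed 4-fold were recovered, with 3 false calls of 125. The 13 alternatives were RLE size factors, no filter, a filter of 1 CPM in 3 libraries, DESeq2 1.42.0, a fit of the M and A libraries alone, the replicate number as a block, removal of the 6 genes with the most counts, and leaving out each of the 6 libraries.

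The chromosome medians of single libraries cover genes with a mean of at least 5 CPM, as log2(CPM + 0.5). These were 360, 446 and 408 genes on chromosomes 6, 9 and 3. The medians of log2 fold changes cover all tested genes of a chromosome. The 48 gene lists were chosen with earlier results of these data known. Genes named had a call, no overlap of the clones' libraries and at least 5 CPM in one clone, and were the 15 largest folds and 8 largest CPM differences in each direction, up to 6 members a list (at least 1 CPM) and up to 5 genes in each shifted 10 Mb window. 38 further genes were named for their role after their values were seen (Adam10, Adam9, Atf4, Axl, B2m, Ccn1, Ccn2, Cd274, Cdh1, Ctnnb1, Ddit3, F2r, Fgfr2, H2-D1, H2-K1, Klhl24, Krt18, Lamb3, Lamc1, Ltbp3, Ltbp4, Mmp14, Nlrc5, Shmt2, Slc3a2, Smad3, Srebf2, Tgfbr1, Trib3, Yap1, Lars, Nars, Qars, Bhlhe40, Per3, Tspan3, Tspan2 and Tspan9). A gene is not reported here.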

Additional observations from a re-analysis of the deposited data

How the results depend on the processing

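With each of the 6 libraries left out in turn, 1479 to 2003 genes were called (2256 with all), 792 to 1005 higher in M, 687 to 1005 lower in M and 676 to 891 with at least a 2-fold difference. The lowest count of each kind came without A replicate 3, and the calls shared with the full set were 63.7% to 75.1% of it. The other 7 alternatives gave 2240 to 2582 calls, 1136 to 1333 higher and 998 to 1278 lower, and shared 92.7% to 99.7% of the calls. The replicate numbers were not taken as pairs, because the labels do not say what a number marks. Same-numbered M and A libraries correlated at 0.0673, 0.0441 and 0.0634 in their deviations from the clone means. All 3 M libraries correlated best with their own number, so that a pairing is not excluded. With the replicate block 2582 genes were called, of which 2232 were shared with the fit without it. The median log2 fold change of all genes ranged from -0.033 to 0.009 over the alternatives.

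Over the named genes and the 13 alternatives, 4075 log2 fold changes kept their direction and side of the threshold. A further 261 kept the direction and lost the call, 5 gained one and 0 changed sign. Of these genes 296 were named by a rule that required a call and no overlap of the clones' libraries. Leaving out a library could hardly change their sign, so the 0 is no test of stability. Of all calls, 63.7% to 75.1% were kept with a library left out. For the gene lists, 569 counts of called members stayed within 1.5 times and 55 did not, 46 of them with a library left out. The histone, cell cycle, endoplasmic reticulum, lysosomal, hypoxia, drug efflux and S100 counts depended on single libraries. So did, among others, the mitochondrially encoded, fatty acid, cytosolic ribosomal, Notch and homeobox counts. The mitochondrially encoded count was 8 with all libraries and 3 without A replicate 2. The medians of 12 lists (mammary basal, serpin, cytokine, interferon, cell cycle, p53, glycolysis, respiratory chain, histone, AP-1, heat shock and homeobox) changed sign with some library left out. S100 genes had 1 called higher and 3 lower of 12 tested (33.3%, against 17.7% of all genes), and 0 called without M replicate 2. The M libraries differed in depth, and the shallowest, M replicate 1, held 7657054 counts outside the 6 most abundant genes, which limits what can be called among low genes.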

Other observations

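Outside the lists above, further gene families were looked at after their values were seen, and none was tested as a group. Only some of them are described below. Of those left out, solute carriers had 21.5% called, Rab GTPases 22.8% and proteasome subunits 15.8%, against 17.7% of all genes. Called were 36 of 327 zinc finger genes, 1 of 18 potassium channel genes and 0 of 19 vacuolar ATPase genes. For Arrdc and Txnip genes it was 2 of 5. Of 20 tested cytosolic aminoacyl-tRNA synthetases, which charge tRNAs with amino acids, 11 were called higher and 1 lower in M (60% called against 17.7% of all genes), with a median log2 fold change of 0.58 against -0.02 for all genes. Lars was at 122, 131 and 128 CPM in M and at 68.6, 75.9 and 64.6 CPM in A (log2 fold change 0.86 ± 0.07, adjusted p = 3e-05) and Nars at 165, 183 and 163 CPM in M and at 91.1, 98.9 and 92.8 CPM in A (0.85 ± 0.06, adjusted p = 4.22e-05). Gars, Aars, Eprs, Iars, Wars, Yars, Rars, Farsb and Tars were the others called higher (Tars not without A replicate 1), and Nars, Aars, Gars and Wars are also members of the ATF4 list. Qars, which charges tRNA with glutamine and lies on chromosome 9, was the one called lower, at 35.3, 43.3 and 34.9 CPM in M and at 52.3, 56.8 and 53.3 CPM in A (-0.51 ± 0.11, adjusted p = 0.0136). That call was lost without M replicate 1, without M replicate 3 and without A replicate 2, at adjusted p up to 0.0726.

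Of 15 tested circadian clock genes 5 were called higher and 3 lower in M (53.3%, against 17.7% of all genes), and 5 were called in all without A replicate 2. Ciart, a repressor of the clock, was at 8.24, 8.77 and 10 CPM in M and at 1.4, 1.4 and 2.28 CPM in A (log2 fold change 2.36 ± 0.24, adjusted p = 1.42e-06) and Bhlhe40, another repressor on chromosome 6, at 33.2, 50.5 and 44.9 CPM in M and at 13.3, 11.3 and 10.6 CPM in A (1.86 ± 0.20, adjusted p = 6.31e-06). Per3, a period gene, was at 3.22, 4.93 and 4.63 CPM in M and at 13, 10.9 and 14.9 CPM in A (-1.58 ± 0.23, adjusted p = 0.000176). Clock itself and Arntl were called higher and Dbp and Bhlhe41 lower. The call of Clock was lost in 3 of 13 alternatives and those of Dbp and Bhlhe41 in 5 each, in every case with a library left out. The labels give the hours of culture and not the time of day at which RNA was taken, so that a difference of phase between cultures was not tested.

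Of 13 tested tetraspanin genes 1 was called higher and 5 lower in M (46.2%, against 17.7% of all genes), and 4 in all without M replicate 1, M replicate 3, A replicate 2 or A replicate 3. Tspan3 was at 50, 42.9 and 48.7 CPM in M and at 93.7, 95.2 and 109 CPM in A (-1.07 ± 0.10, adjusted p = 8.74e-06), Tspan2 at 6.17, 7.82 and 8.87 CPM in M and at 21.8, 21.9 and 19.2 CPM in A (-1.45 ± 0.16, adjusted p = 1.51e-05) and Tspan9, on chromosome 6, at 18.2, 27.7 and 23.5 CPM in M and at 13, 14.4 and 14.4 CPM in A (0.73 ± 0.18, adjusted p = 0.00953), a call lost without M replicate 2. Tspan3 lies on chromosome 9 and Tspan2 on chromosome 3. Of 77 tested mitochondrial ribosomal protein genes 3 were called higher and 0 lower by edgeR (3.9%, below the 17.7% of all genes), 1 without M replicate 1 and 6 without M replicate 2.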
